A study of Mus musculus with 18 samples.

Results

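The testes of ICR mice on a high-fat diet that were given AOS (HFD-AOS) were compared with those of mice given AOS without the diet (AOS), a comparison that asks how the diet bears on the testis when AOS is present in both arms. Both groups received 10 mg/kg AOS, were 10 weeks old and are represented by 3 libraries each, so 6 of 18 libraries enter the comparison itself. A further pair of groups, untreated control and high-fat diet alone (HFD), also with 3 libraries each, gave the same diet difference without AOS. The labels do not spell AOS out, and they name no transgene or Cre line. The genes described are the 13105 of 20979 gene symbols whose mean over the 18 libraries was at least 1 FPKM, the unit of level used throughout (fragments per kilobase of transcript, scaled to the mapped fragments of the library). The 3 libraries of a group are called AOS 1 to 3 and HFD-AOS 1 to 3, and their numbers only name them. Each library is RNA from whole testis, in which fewer cells of a type and less RNA per cell cannot be told apart.

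The testis makes sperm in the seminiferous tubules, where spermatogonia divide, spermatocytes pass through meiosis and round spermatids elongate, swap histones for transition proteins and then protamines, and build the acrosome and the tail. Sertoli cells nurse the germ cells inside the tubule, and Leydig cells between the tubules turn cholesterol into testosterone under luteinizing hormone. High-fat feeding is widely used in mice as a model of obesity and its effects on male fertility.

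The libraries carried the RNA of a testis. Sums ran from 604416 to 637005 FPKM over the 6 compared libraries, and between 13022 and 13097 genes reached 1 FPKM in each. Relative depths estimated from the steps between low values lay between 0.924 and 1.07, and absolute depth is unknown. Defining markers of germ cells, Sertoli cells, Leydig cells and peritubular cells were present in all 6 libraries, while the endothelial marker Pecam1 and the Sertoli hormone Amh stayed under the mean of 1 FPKM. In these 6 libraries the epididymal genes Crisp1 and Lcn5 stayed at or under 0.10 and at 0 FPKM. The seminal vesicle genes Svs2 and Svs4 stayed at or under 0.13 and 1.06 FPKM. Over 12 tested genes of epididymis and accessory glands, the mean log2 deviation from the level over all 18 libraries was 1.64 in control 3. It was -0.06 and -0.35 in control 1 and 2, and -0.43 to -0.21 in the 6 compared libraries. HFD-conFMT 2, from a further group on the diet, was at 1.42. The source of that RNA was not tested. The fat cell hormone Adipoq was at 10.2 to 13.1 FPKM in AOS and 12.03 to 12.36 in HFD-AOS.

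No gene separated the groups beyond the error of these libraries. limma called 0 of 13105 genes higher and 0 lower in HFD-AOS (0% in either direction) at a Benjamini-Hochberg adjusted p under 0.05, and the lowest adjusted p was 0.281. An unadjusted p under 0.05 was reached by 677 genes on the higher side (5.17%) and 593 on the lower side (4.52%), together 1270 (9.69%). These counts were 394 and 323, and the lowest adjusted p was 0.661, with only the groups compared in the limma model. Leaving HFD-AOS 1 out gave 437 and 391, and leaving HFD-AOS 3 out gave 1139 and 888. The 3 values of 1 group lay clear of the other 3 for 677 genes higher (5.17%) and 767 lower (5.85%) in HFD-AOS, together 1444 (11%). Differences were small: the median absolute difference was 0.07 on the log2(FPKM + 1) scale, against a median SE of 0.08. That scale, used for every difference here, shrinks the differences of genes at low levels. Only 136 genes differed by more than 0.5 and 20 by more than 1 on that scale. Of all genes, 48.8% read higher and 51.2% lower in HFD-AOS, and the median difference was -0.003. The words higher and lower below therefore give the direction of values, not calls.

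The HFD-AOS libraries also differed more among themselves than those of any other group. The median gene's SD on the log2 scale was 0.106 in HFD-AOS, 0.0775 in AOS and between 0.0704 and 0.0864 in the other 4 groups. Pairs of HFD-AOS libraries differed by a median of 0.105 to 0.137 on that scale, and pairs of AOS libraries by 0.0790 to 0.0980. The model shares a spread per gene over the 6 groups, so its SE and p may be too small for HFD-AOS minus AOS.

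Among the genes of smallest p on the higher side was Cd7, which encodes a surface glycoprotein of T and natural killer cells. Cd7 read 1.29, 0.50 and 0.43 FPKM in AOS 1, 2 and 3 and 2.26, 2.23 and 1.90 in HFD-AOS 1, 2 and 3. The groups did not overlap, although both were low, and the log2 difference was 0.88 ± 0.17 (SE; adjusted p = 0.281). Tmem190, a transmembrane protein of the sperm acrosome, read 133, 129 and 131 FPKM in AOS and 168, 155 and 148 in HFD-AOS. All 3 HFD-AOS values exceeded all AOS values, with a log2 difference of 0.26 ± 0.05 (SE; adjusted p = 0.281). Adi1, an enzyme of the methionine salvage pathway, read 3.24, 3.10 and 3.05 FPKM in AOS and 4.71, 5.29 and 5.18 in HFD-AOS, again without overlap (log2 difference 0.55). Rbp4, the retinol carrier of plasma, read 2.06, 2.46 and 2.29 FPKM in AOS and 4.89, 3.40 and 3.32 in HFD-AOS, with HFD-AOS 1 highest (log2 difference 0.56). Adtrp, a hydrolase first described as regulated by androgen, read 18.95, 16.02 and 15.84 FPKM in AOS and 22.8, 21.6 and 19.7 in HFD-AOS, where the lowest HFD-AOS value lay just above the highest AOS value. The other 5 genes of this group were Rae1, an mRNA export factor, Arrb1, a beta-arrestin, Cyp2c55, a cytochrome P450, Pced1b and Ccdc57, with log2 differences between 0.24 and 0.73 and adjusted p between 0.281 and 0.332.

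On the lower side stood Amn, the partner of cubilin in the uptake of vitamin B12. Amn read 2.30, 1.21 and 2.52 FPKM in AOS and 0.63, 0.61 and 0.45 in HFD-AOS, a log2 difference of -0.92 ± 0.19 (SE; adjusted p = 0.281). Every AOS value lay well above every HFD-AOS value, and all were low. Sh2b2, an adaptor of the insulin receptor, was even within AOS at 2.87, 2.82 and 2.87 FPKM and lower in HFD-AOS at 1.69, 1.22 and 1.72 (log2 difference -0.61, adjusted p = 0.332). Tubb3, a beta tubulin best known from neurons, read 14.6, 15.3 and 14.9 FPKM in AOS and 10.4, 11.6 and 12.4 in HFD-AOS, without overlap (log2 difference -0.36, adjusted p = 0.281). Abhd5, the activator of the triglyceride lipase Pnpla2, read 72.3, 74.9 and 75.5 FPKM in AOS and 52.6, 66.5 and 65.3 in HFD-AOS. HFD-AOS 1 was lowest there, and the groups again did not overlap (log2 difference -0.27). Klc3, a kinesin light chain found in spermatids, was at 15.6, 16.3 and 15.7 FPKM in AOS and 12.4, 13.5 and 13.1 in HFD-AOS (log2 difference -0.27). The rest were Zbtb42, a zinc finger protein, Fn3krp, a kinase that acts on sugar-modified proteins, the testis serine protease Prss44, the type II collagen Col2a1 and Btbd35f22. Their log2 differences lay between -0.53 and -0.34 and their adjusted p between 0.281 and 0.332. Btbd35f22 belongs to a family of near-identical copies on chromosome X, so its value is uncertain.

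**Figure D1:**
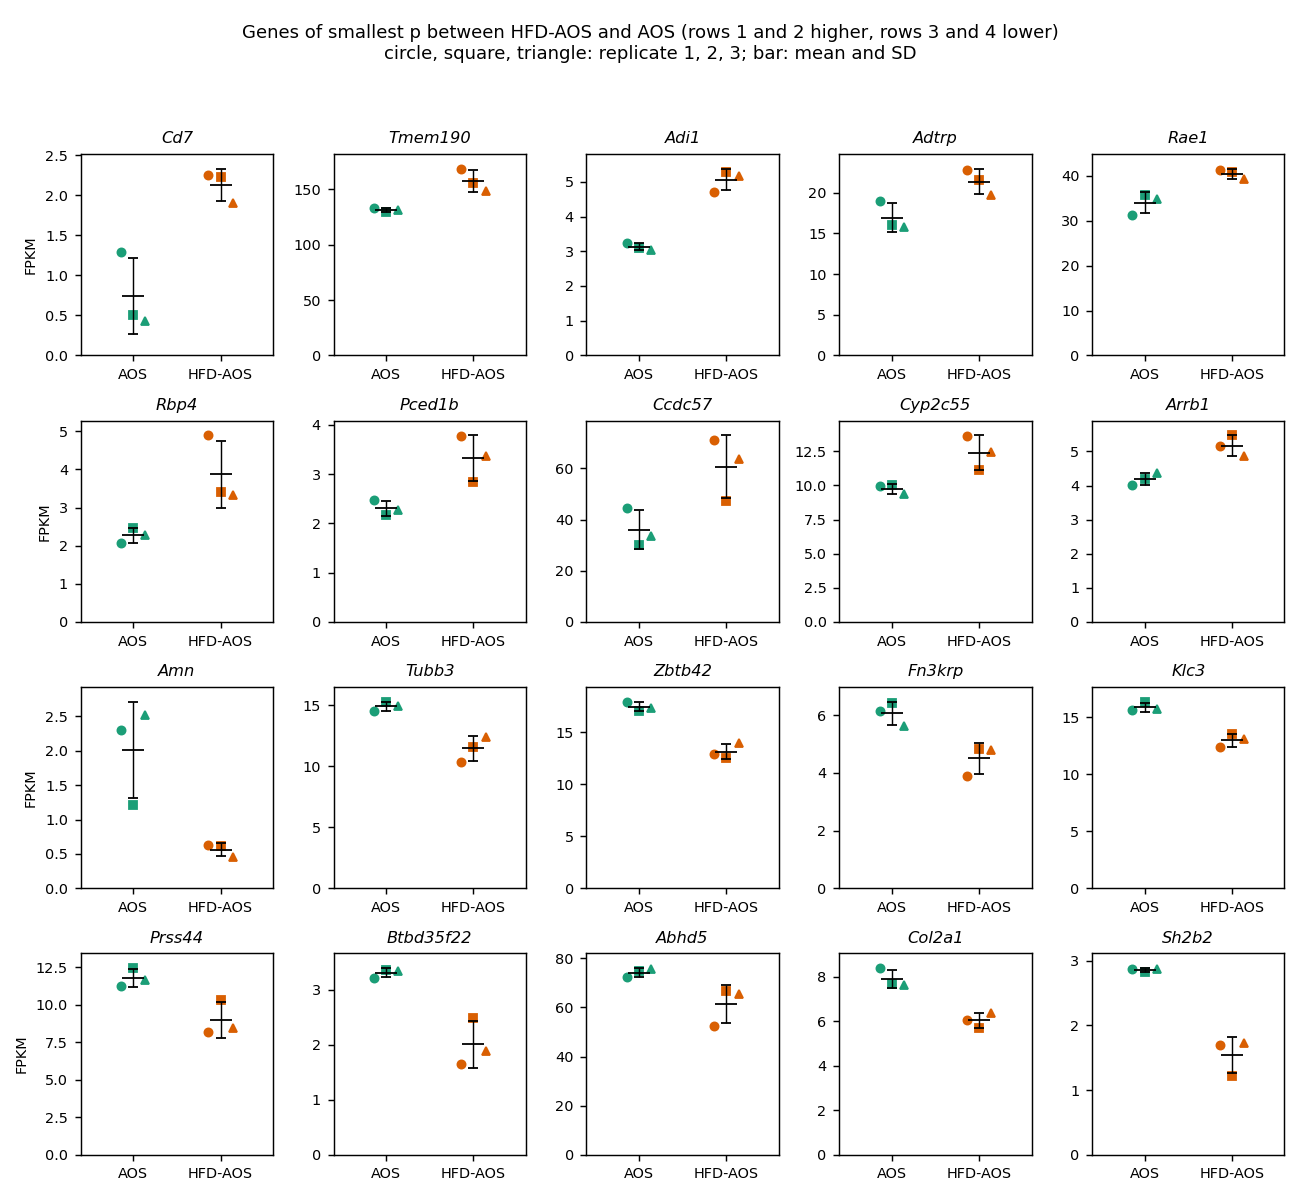
FPKM of the 10 genes of smallest p higher in HFD-AOS and the 10 lower, 1 panel a gene, with each library as a point and the mean and SD of 3 libraries as bars. The 3 values of 1 group lie clear of the other 3 in every panel, as the choice of genes required, and no gene reached an adjusted p under 0.05.

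Genes of round spermatids, the stage that builds the acrosome, tended to read higher in HFD-AOS. Of 38 listed genes, all tested, 24 were higher and 14 lower, with a median log2 difference of 0.053 against -0.003 over all genes. An unadjusted p under 0.05 was reached by 10 on the higher side, where all genes gave 5.17%, and by 0 on the lower side; limma called 0 after adjustment. Under quantile normalization the median was 0.033, with 7 on the higher and 3 on the lower side, and without HFD-AOS 2 it was 0.036, with 9 and 3. All 13105 genes gave 638 and 625 under quantile normalization and 644 and 771 without HFD-AOS 2. Theg, a protein of haploid germ cells, read 233, 235 and 222 FPKM in AOS and 301, 268 and 239.7 in HFD-AOS. Its groups did not overlap, but HFD-AOS 3 exceeded AOS 2 only narrowly (log2 difference 0.22, SE 0.06, adjusted p = 0.380). Izumo2, a member of the sperm-egg fusion family of Izumo1, read 160.0, 152 and 161 FPKM in AOS and 189, 176 and 171 in HFD-AOS, without overlap (log2 difference 0.18). Tex29 read 230.5, 252 and 237 FPKM in AOS and 360.1, 307 and 240.2 in HFD-AOS, so that HFD-AOS 1 and 2 stood above AOS and HFD-AOS 3 within it (log2 difference 0.32, adjusted p = 0.418). The acrosomal protein Acrv1 had the same order, at 282, 301 and 264 FPKM in AOS against 388, 342 and 273 in HFD-AOS (log2 difference 0.23). The acrosomal protease Acr was at 197, 191 and 192 FPKM in AOS and 244, 203 and 206 in HFD-AOS, without overlap. Catsper1, a pore subunit of the sperm calcium channel, read 113, 106 and 107 FPKM in AOS and 137, 125 and 109 in HFD-AOS, with HFD-AOS 3 inside the AOS range. The other members with an unadjusted p under 0.05 were Spaca4, Spaca7, Sun5 and Lyzl1, with log2 differences of 0.14 to 0.23.

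How far these genes stood apart differed between the libraries of HFD-AOS. The mean log2 deviation of the 38 genes from their level over all 18 libraries was 0.079 in HFD-AOS 1, 0.072 in HFD-AOS 2 and -0.024 in HFD-AOS 3, against -0.035 to -0.003 in the 3 AOS libraries. HFD-AOS 1 and 2 thus lay above the AOS range and HFD-AOS 3 within it. Members with an unadjusted p under 0.05 on the higher side numbered 5 without HFD-AOS 1, 6 without AOS 3 and 14 without HFD-AOS 3. Over all 13105 genes that side held 437, 474 and 1139 in the same settings, so the counts over all genes moved as well. Leaving HFD-AOS 3 out raised the calls from 0 to 30 genes, 26 higher and 4 lower, and for 17 of these 30 its value lay within the AOS range. Spata9, a testis gene, then had the lowest adjusted p, 0.0053. Spata9 read 158, 153 and 150.1 FPKM in AOS, 194 and 189.7 in HFD-AOS 1 and 2, and 147 in HFD-AOS 3, below all 3 AOS values. Among these 30 of 13105 genes were Acrv1, Tex29 and Theg of the 38 round spermatid genes and 0 of the elongating spermatid list. Over all libraries, 6 of the 30 did not overlap between the groups, where 11% of all genes did not. The 30 were called on libraries that also enter that count, so the count is not a separate result. The calcium-binding protein S100a11 had the largest difference of the 30, at 33.0, 44.0 and 25.9 FPKM in AOS and 105, 58.1 and 47.4 in HFD-AOS, with HFD-AOS 1 far above the others (log2 difference 0.96, adjusted p = 0.332 with all libraries). The 4 on the lower side were Tmed1, Cfap52, Emc10 and Tubb3. The group so reduced has 2 libraries and a spread borrowed from the other groups.

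Of 37 elongating spermatid genes 21 were higher, with a median log2 difference of 0.024 and 2 with an unadjusted p under 0.05, and under quantile normalization the median turned to -0.028, with 12 of 37 higher, while without HFD-AOS 1 it was 0.0074. Prm1, the main protamine gene, read 14946, 15864 and 14417 FPKM in AOS and 17895, 14753 and 15540 in HFD-AOS, with overlap and a log2 difference of 0.09 ± 0.11 (SE). The transition protein gene Tnp1 read 7599, 8268 and 7394 FPKM in AOS and 6627, 7635 and 7867 in HFD-AOS, also with overlap. Of 45 spermatocyte genes 25 were higher, with 0 at an unadjusted p under 0.05. Without HFD-AOS 3 there were 9 higher and 1 lower, where all 13105 genes gave 1139 and 888. Sycp3, a protein of the synaptonemal complex, differed by -0.02 ± 0.07 (SE). Of 21 spermatogonial genes 8 were higher and 13 lower, with a median of -0.026. The member of smallest p, Mcam, was lower without overlap (log2 difference -0.20, adjusted p = 0.466). Among the higher ones was Kit, the receptor of differentiating spermatogonia, at 4.11, 5.07 and 4.54 FPKM in AOS and 5.86, 6.67 and 5.76 in HFD-AOS. Kit did not overlap between the groups (log2 difference 0.35, adjusted p = 0.493). Cell cycle genes read lower in 30 of 42 cases, with a median of -0.047, and in 24 of 42 without HFD-AOS 1. An unadjusted p under 0.05 was reached by 5 on the lower side, where all genes gave 4.52%, and by 0 on the higher side. That count of 5 was 3 without HFD-AOS 1, without AOS 2, under quantile normalization and under median scaling, and 8 without HFD-AOS 2. In that order, the lower side held 391, 467, 625, 503 and 771 of all 13105 genes, against 593 in the main fit. The topoisomerase Top2a was at 30.6, 33.5 and 33.1 FPKM in AOS and 27.9, 29.5 and 29.9 in HFD-AOS, without overlap (log2 difference -0.15, adjusted p = 0.439). The mitotic regulators Cdc20, Cdk1, Bub1b and Bub1 were the other 4, with log2 differences between -0.18 and -0.13.

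**Figure D2:**
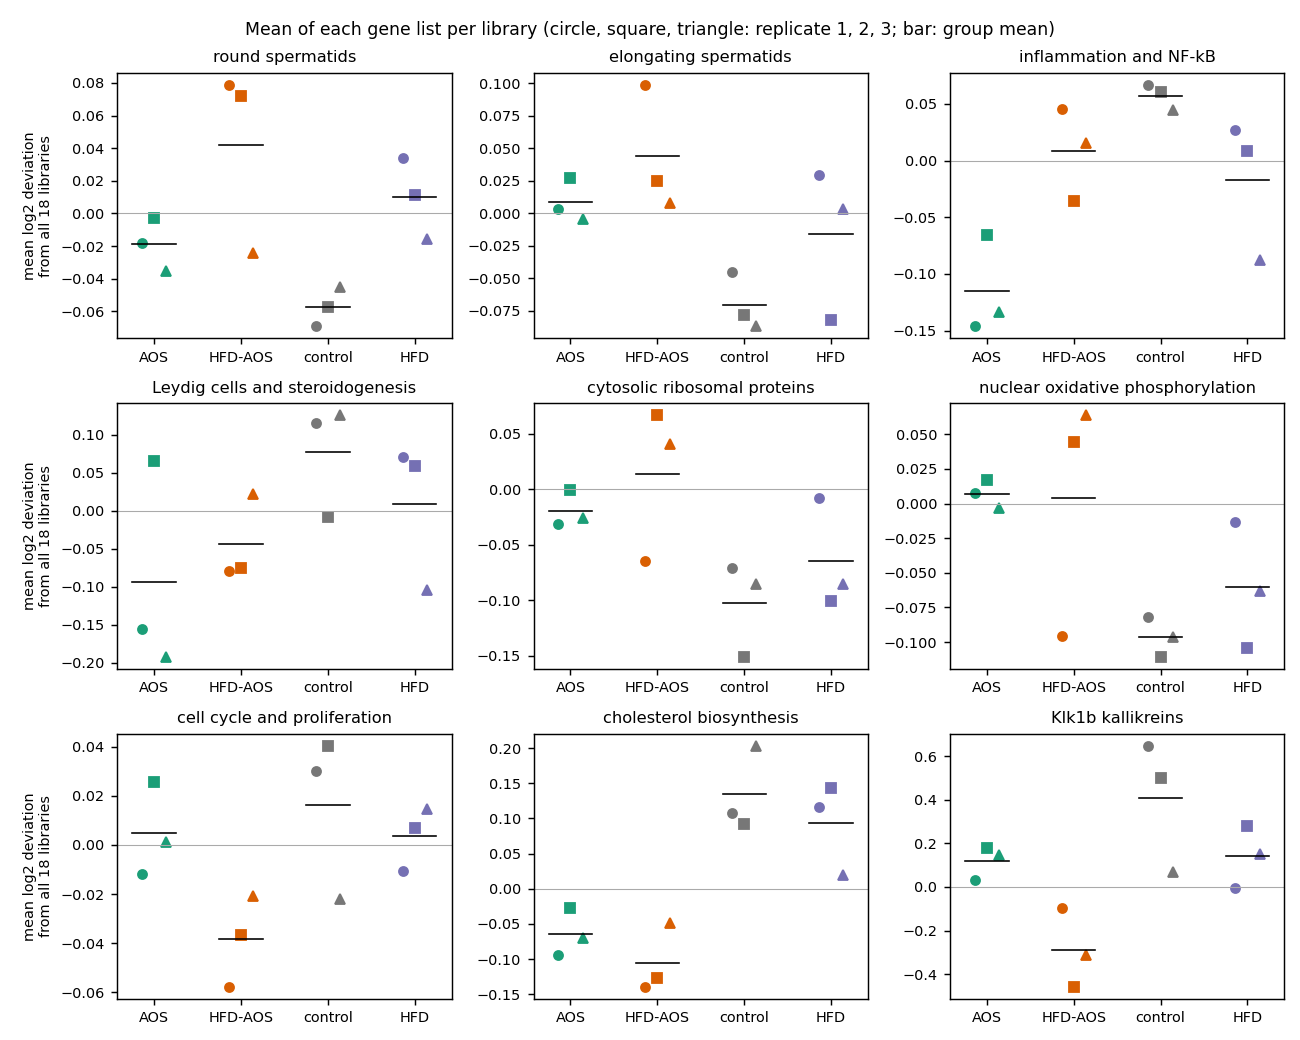
Mean log2 deviation of the tested members of 9 gene lists from their level over all 18 libraries, in each library of 4 groups, with group means as bars. For round spermatids HFD-AOS 1 and 2 stand at 0.079 and 0.072 and HFD-AOS 3 at -0.024, within the AOS range.

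Leydig cells gave no shared direction, with 15 of 28 genes higher and a median log2 difference of 0.042. The mean log2 deviation of the list was 0.066 in AOS 2 against -0.156 and -0.192 in AOS 1 and 3. Without AOS 2, 19 of 28 were higher with a median of 0.101, and the median was 0.091 without HFD-AOS 2 and 0.017 without HFD-AOS 3. Inside the list the isoenzymes of 3-beta-hydroxysteroid dehydrogenase, which convert pregnenolone to progesterone in the path to testosterone, had opposite signs. Hsd3b1 read 62.7, 87.6 and 48.1 FPKM in AOS and 109.8, 102 and 109.3 in HFD-AOS, where every value exceeded every AOS value. Its log2 difference was 0.73 ± 0.18 (SE) with an unadjusted p of 0.0012 and an adjusted p of 0.369. Hsd3b6, the isoenzyme of adult mouse Leydig cells, read 29.3, 33.0 and 26.4 FPKM in AOS and 14.9, 16.2 and 25.9 in HFD-AOS. HFD-AOS 1 and 2 were far below AOS and HFD-AOS 3 just below its lowest value (log2 difference -0.65 ± 0.24 SE, adjusted p = 0.463). The share of Hsd3b1 in the sum of both was 68.1%, 72.7% and 64.6% in AOS and 88.1%, 86.3% and 80.8% in HFD-AOS, while the sum itself overlapped, at 74.5 to 121 FPKM against 118 to 135. Without AOS the share was 62.7% to 76.5% in control and 77.8% to 82.3% in HFD, so it stood clear of the group off the diet in that pair as well. Of the further groups on the diet, HFD-AOSFMT, at 67.4% to 84.7%, overlapped AOS and control, and HFD-conFMT was at 82.3% to 88.6%.

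The same genes share sequence, which limits how far their levels can be read apart. Their longest transcripts are 85.8% identical over 1519 aligned bases on chromosome 3, and the longest stretch without a difference is 72 bases. That stretch is shown with 15 coding bases on either side, from GENCODE M21 transcripts (GRCm38.p6, minus strand, spliced across 1 intron), at chr3:98853338-98856069 for Hsd3b1 and chr3:98806646-98807840 for Hsd3b6. Capitals mark the 3 bases that differ, so a read inside the lower-case run fits both genes equally, and the counting of such reads is not described in the labels.
Hsd3b1: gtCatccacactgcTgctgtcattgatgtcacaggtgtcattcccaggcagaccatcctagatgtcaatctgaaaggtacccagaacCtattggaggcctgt
Hsd3b6: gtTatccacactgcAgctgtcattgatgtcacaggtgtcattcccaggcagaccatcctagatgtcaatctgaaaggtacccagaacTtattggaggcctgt

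The other steroid genes differed by less. Nr5a1, the transcription factor SF-1 that drives steroid genes, read 10.8, 12.8 and 10.4 FPKM in AOS and 15.7, 13.1 and 13.6 in HFD-AOS, without overlap (log2 difference 0.30 ± 0.11 SE, adjusted p = 0.460). Hsd17b3, which makes testosterone from androstenedione, read 35.2, 44.4 and 29.7 FPKM in AOS and 52.7, 45.1 and 43.0 in HFD-AOS, where AOS 2 exceeded HFD-AOS 3. Star, which carries cholesterol into mitochondria, was at 30.1, 33.0 and 36.5 FPKM in AOS and 35.03, 24.78 and 31.12 in HFD-AOS (log2 difference -0.14 ± 0.16 SE). The side-chain cleavage enzyme Cyp11a1 differed by 0.18 ± 0.15, Cyp17a1 by 0.07 ± 0.13 and the luteinizing hormone receptor Lhcgr by 0.15 ± 0.17 (log2, SE), all with overlap. Insl3, the Leydig cell hormone, stood out in HFD-AOS 1 alone, at 2347, 2930.1 and 2119 FPKM in AOS and 4367, 2320 and 2282 in HFD-AOS, and without HFD-AOS 1 the log2 difference turned from 0.22 to -0.09. Srd5a1, a steroid 5-alpha-reductase, read 2.14, 2.59 and 1.77 FPKM in AOS and 1.37, 1.57 and 1.92 in HFD-AOS, with overlap. Por, an electron donor of Cyp17a1, was at 8.64, 8.31 and 9.43 FPKM in AOS and 10.5, 9.47 and 10.5 in HFD-AOS, without overlap (log2 difference 0.19).

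**Figure D3:**
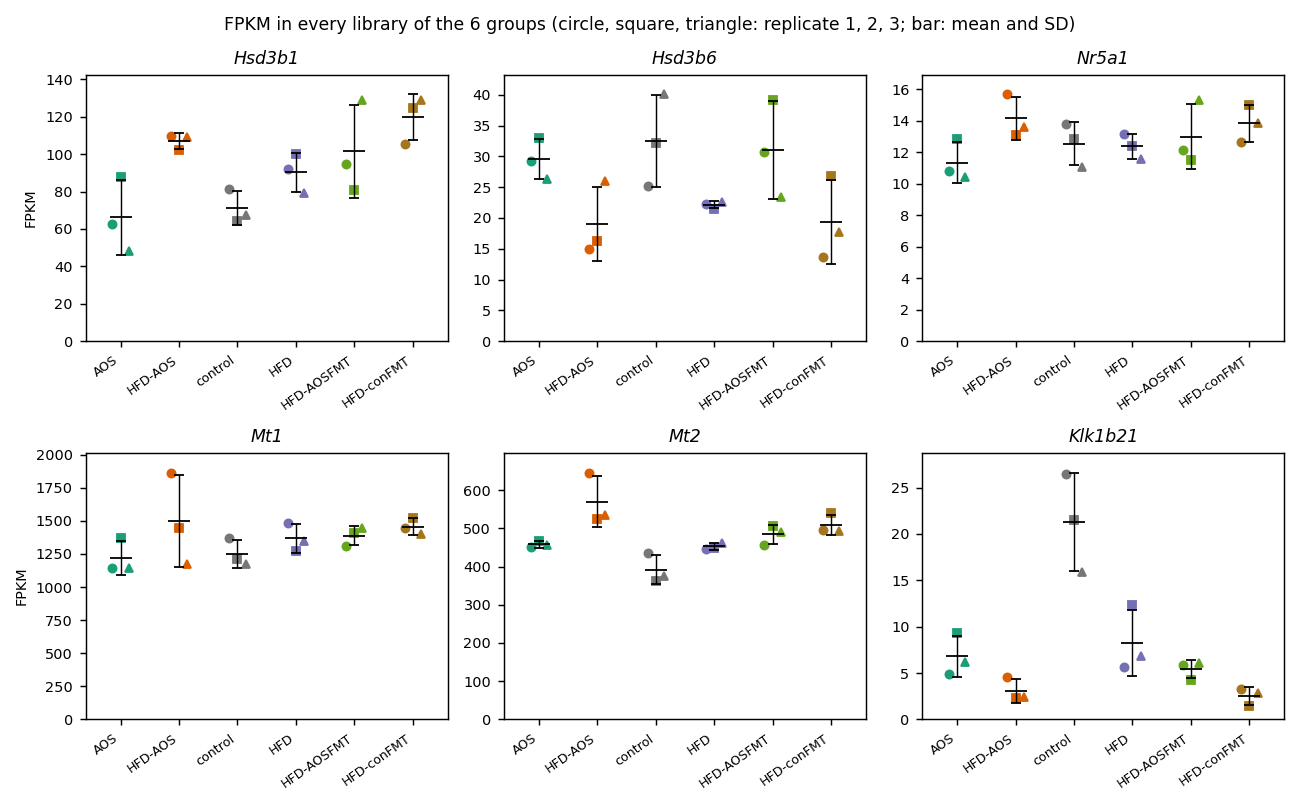
FPKM of 6 genes in every library of all 6 groups, with the mean and SD of 3 libraries as bars. Hsd3b1 lies between 102 and 109.8 FPKM in HFD-AOS and at 48.1 to 87.6 in AOS. Klk1b21 lies between 16.0 and 26.5 FPKM in control and at 9.28 or lower in AOS and HFD-AOS. Its mean is also below control in the other groups, at 8.27 in HFD, 5.40 in HFD-AOSFMT and 2.53 in HFD-conFMT.

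Of 36 antioxidant genes 18 were higher, from 15 to 21 when 1 of the 6 compared libraries was left out, and the metallothioneins, small proteins that bind zinc and copper, read higher in HFD-AOS. Mt2 was at 450.1, 468 and 457 FPKM in AOS and 646, 526 and 536 in HFD-AOS, without overlap (log2 difference 0.31 ± 0.08 SE, adjusted p = 0.357). Mt1, its neighbour on chromosome 8, read 1147, 1371 and 1145 FPKM in AOS and 1865, 1446 and 1176 in HFD-AOS, where HFD-AOS 3 fell inside the AOS range (log2 difference 0.27, adjusted p = 0.504). The mitochondrial superoxide dismutase Sod2 read 27.2, 33.7 and 30.6 FPKM in AOS and 36.2, 32.6 and 34.2 in HFD-AOS, with HFD-AOS 2 within the AOS range. Cat, the peroxide-degrading catalase, averaged 4.35 ± 0.849 (SD, n = 3) FPKM in AOS and 6.09 ± 1.05 in HFD-AOS. Mt1 and Mt2 transcripts share no run longer than 20 bases.

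The promoters of Mt1 and Mt2 are shown because metallothionein genes are known targets of the zinc sensor Mtf1, which binds metal response elements. The windows span 250 bases before to 50 after each start on the plus strand, from RefSeq on GRCm38.p6, at chr8:94178839-94179138 for Mt1 and chr8:94172368-94172667 for Mt2. Capitals mark the element core, TGCACNC or TGCGCNC, searched on both strands, with 3 matches in Mt1 and 4 in Mt2. Of 32851 promoters of that length, 25.7% held at least 1 match and 1.97% held 3 or more. A match describes the letters and is not a measured binding site.
Mt1: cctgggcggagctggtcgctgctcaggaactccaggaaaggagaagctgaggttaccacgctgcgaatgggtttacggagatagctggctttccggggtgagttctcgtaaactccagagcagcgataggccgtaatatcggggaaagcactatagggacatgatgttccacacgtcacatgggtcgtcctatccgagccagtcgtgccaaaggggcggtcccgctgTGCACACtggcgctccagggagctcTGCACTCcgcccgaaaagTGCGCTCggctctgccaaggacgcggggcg
Mt2: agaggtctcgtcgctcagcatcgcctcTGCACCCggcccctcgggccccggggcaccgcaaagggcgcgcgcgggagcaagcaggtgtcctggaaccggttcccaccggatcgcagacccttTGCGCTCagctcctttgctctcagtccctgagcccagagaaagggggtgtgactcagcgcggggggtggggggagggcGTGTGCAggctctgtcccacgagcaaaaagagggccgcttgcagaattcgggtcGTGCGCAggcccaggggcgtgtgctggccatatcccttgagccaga

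Genes of inflammation and NF-kB signalling were mostly low in these testes. Of 41 listed genes 16 passed the mean of 1 FPKM, and 12 of these read higher in HFD-AOS, with a median log2 difference of 0.11. The cytokine gene Il18 read 0.81, 1.34 and 1.2 FPKM in AOS and 1.78, 2.01 and 1.47 in HFD-AOS, without overlap (log2 difference 0.38 ± 0.12 SE, adjusted p = 0.439). Ly96, the partner of the endotoxin receptor Tlr4, read 1.00, 1.02 and 1.70 FPKM in AOS and 2.90, 2.08 and 1.54 in HFD-AOS, and Lbp, which binds endotoxin, 2.78, 3.09 and 2.30 against 4.29, 2.92 and 4.04. In Ly96 HFD-AOS 3 lay within the AOS range, and in Lbp HFD-AOS 2 did. Over the 16 genes the mean log2 deviation was -0.146, -0.066 and -0.133 in AOS and 0.046, -0.036 and 0.016 in HFD-AOS, so the groups stood apart narrowly, while the 3 control libraries, at 0.045 to 0.066, had the highest mean of the 4 groups. The median was 0.060 without HFD-AOS 3 and 0.0091 when genes were required to average 5 FPKM. Of 20 macrophage and leukocyte genes 10 were higher, with a median of 0.024. That split moved with AOS 2, whose mean log2 deviation for the list was 0.147 against -0.187 and -0.127 in AOS 1 and 3 and -0.066 to 0.016 in HFD-AOS. Without AOS 2, 17 of 20 were higher with a median of 0.121, and without AOS 1 the median turned to -0.042. The summed level of these genes was 465 to 525 FPKM in AOS and 479 to 498 in HFD-AOS. The macrophage marker Csf1r read 1.98, 2.96 and 1.86 FPKM in AOS and 2.19, 2.47 and 2.94 in HFD-AOS, with overlap. The part of such cells in the values of Il18, Ly96 and Lbp was not tested. Among 20 interferon response genes 10 were higher, with a median of -0.0088. Without AOS 1 only 5 of 20 were higher (median -0.131), and without AOS 3 there were 13 (median 0.105), 6 of them with an unadjusted p under 0.05 against 1 with all libraries. Of all 13105 genes, 474 were on that side without AOS 3 and 677 with all libraries. Ifi27l2a read 3.01, 1.54 and 11.1 FPKM in AOS and 7.95, 11.8 and 6.48 in HFD-AOS, with AOS 3 high.

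Genes of fatty acid synthesis, cholesterol synthesis and glycolysis mostly read slightly lower in HFD-AOS, where 51.2% of all genes did. The lean was not particular to metabolism, since 26 of 36 proteasome genes and 24 of 36 heat shock and chaperone genes were lower. Without HFD-AOS 1 these were 16 and 21 of 36. Of 26 fatty acid synthesis and desaturation genes 18 were lower, 7 of them without overlap (5.85% of all genes), with a median log2 difference of -0.058, which became -0.025 without AOS 2 and -0.033 without HFD-AOS 1. Dgat1, which makes triglyceride, read 35.9, 38.6 and 37.4 FPKM in AOS and 29.1, 33.5 and 35.7 in HFD-AOS (log2 difference -0.19, adjusted p = 0.434), and every AOS value exceeded every HFD-AOS value. Thrsp, a lipogenic gene that responds to thyroid hormone in liver, was at 3.23, 5.92 and 2.53 FPKM in AOS and 1.97, 0.54 and 2.57 in HFD-AOS, where AOS 3 and HFD-AOS 3 met. Of 26 cholesterol synthesis genes 19 were lower, with 0 at an unadjusted p under 0.05 and a median of -0.039, which became -0.00019, with 13 of 26 lower, without HFD-AOS 1. Of 37 genes of fatty acid uptake and oxidation 16 were higher and 21 lower, with a median of -0.0038, and 22 were higher without AOS 2 or without HFD-AOS 1. Of 15 genes of cholesterol uptake and efflux 10 were higher, with a median of 0.012 that turned to -0.022 without HFD-AOS 1. An unadjusted p under 0.05 was reached by 3 of the higher and 0 of the lower ones, where all genes gave 5.17% and 4.52%. That count of 3 was 0 without AOS 3, and 1 without AOS 1, without HFD-AOS 1 or without HFD-AOS 3. In that order, the higher side held 474, 465, 437 and 1139 of all 13105 genes, against 677 in the main fit. Of 29 glycolysis genes 22 were lower, with a median of -0.042, which became -0.012 without HFD-AOS 1. The glucose transporter of germ cells, Slc2a3, read 295.0, 297 and 295 FPKM in AOS and 239, 269 and 282 in HFD-AOS, with HFD-AOS 1 lowest and no overlap (log2 difference -0.17, adjusted p = 0.418). Pgam2, a phosphoglycerate mutase abundant in sperm, went the other way at 1098, 1188 and 1123 FPKM in AOS and 1477, 1234 and 1172 in HFD-AOS, with overlap. Akt1, the kinase downstream of the insulin receptor, read 13.8, 14.4 and 14.3 FPKM in AOS and 10.3, 11.4 and 11.4 in HFD-AOS, without overlap (log2 difference -0.33 ± 0.09 SE, adjusted p = 0.397).

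Genes of translation and respiration gave counts that moved with single libraries. Of 84 cytosolic ribosomal protein genes 54 were higher, with a median log2 difference of 0.035. Their mean log2 deviation was -0.031, -0.001 and -0.026 in AOS, and -0.065, 0.067 and 0.041 in HFD-AOS, so that HFD-AOS 1 lay below AOS and HFD-AOS 2 and 3 above. Without HFD-AOS 1, 77 of 84 were higher, without HFD-AOS 2 only 42 of 84 (median -0.003), and under quantile normalization the median turned to -0.010, with 36 of 84 higher. Rpl23a, a protein of the large ribosomal subunit, read 416, 433 and 434 FPKM in AOS and 517, 473 and 475 in HFD-AOS (log2 difference 0.19 ± 0.05 SE, adjusted p = 0.332). Ribosomal protein genes have many processed copies, so these values are uncertain. Of 82 nuclear genes of oxidative phosphorylation 35 were higher with a median of -0.008, and without HFD-AOS 1 61 were higher with a median of 0.034. Leaving HFD-AOS 2 out gave a median of -0.056, and leaving HFD-AOS 3 out gave -0.052, with 12 genes of unadjusted p under 0.05 on the lower side against 2 with all libraries. Of all 13105 genes, 888 were on that side without HFD-AOS 3 and 593 with all libraries. Ndufa3, a subunit of complex I, read 127, 169 and 128 FPKM in AOS and 253, 181 and 148 in HFD-AOS, with HFD-AOS 1 highest and HFD-AOS 3 within the AOS range.

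**Figure D4:**
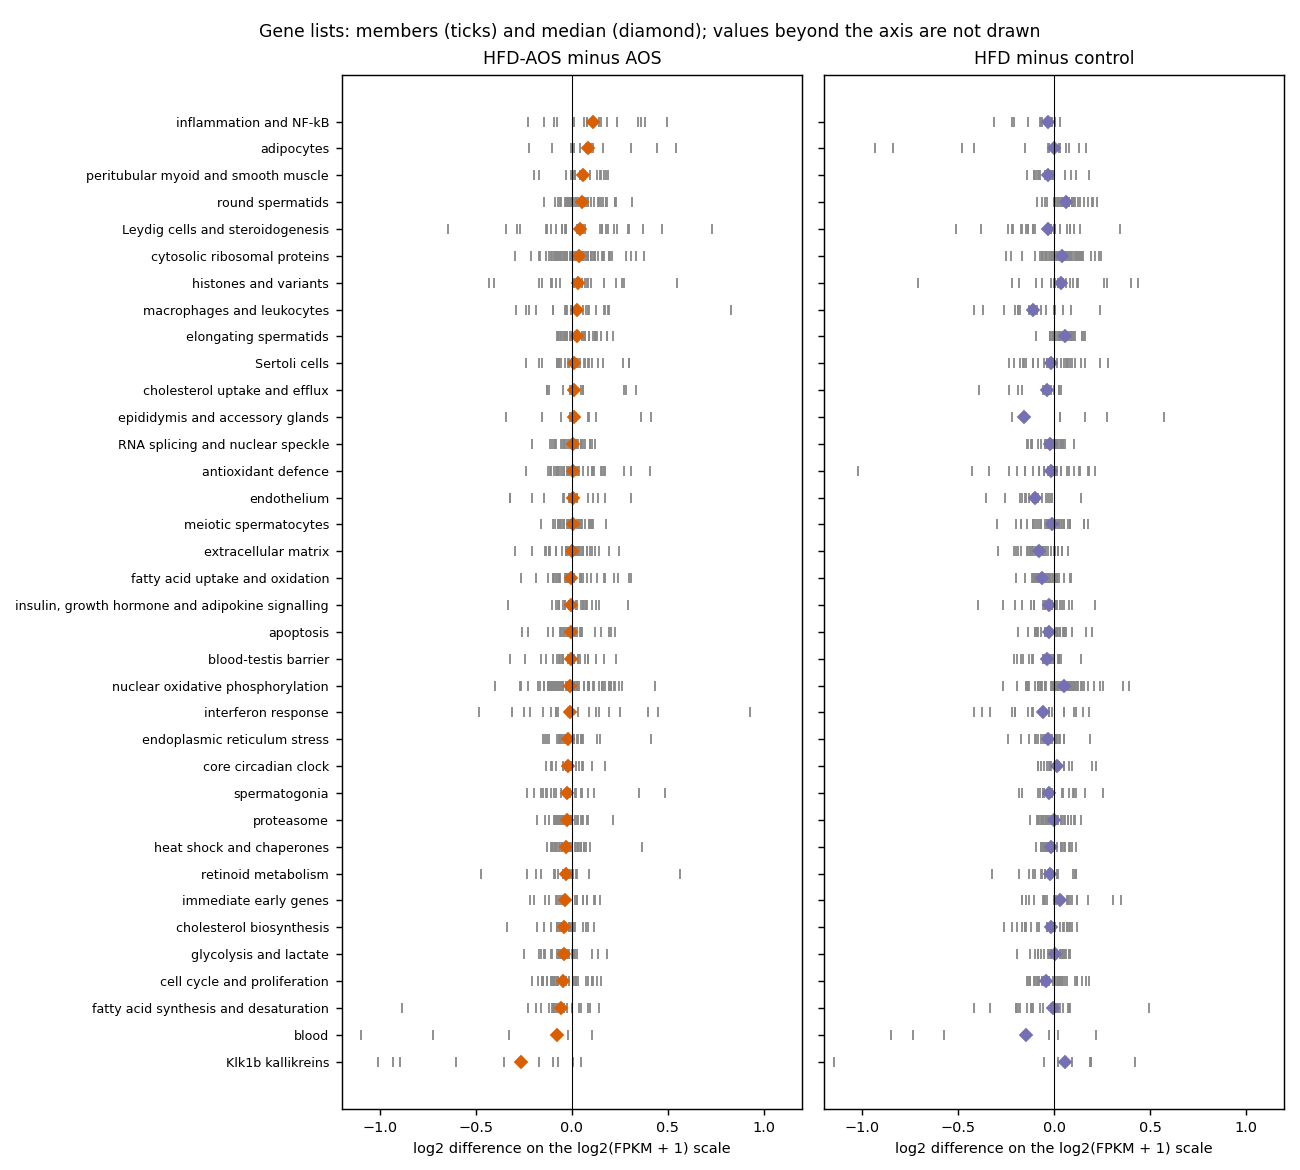
Log2 difference of each tested member of 36 gene lists (ticks) and the list median (diamonds) for HFD-AOS minus AOS on the left and HFD minus control on the right. Medians on the left run from -0.26 for the Klk1b kallikreins to 0.11 for inflammation and NF-kB, and most lie within 0.05 of 0.

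The Klk1b kallikreins, secreted serine proteases of mouse testis and salivary gland, had the lowest list median, -0.26, with 8 of 10 tested genes lower. Klk1b24 read 6.03, 9.2 and 7.27 FPKM in AOS and 5.0, 1.88 and 3.21 in HFD-AOS, without overlap (log2 difference -1.01 ± 0.31 SE, adjusted p = 0.418). Klk1b21 read 4.92, 9.28 and 6.21 FPKM in AOS and 4.59, 2.31 and 2.41 in HFD-AOS, also without overlap (log2 difference -0.93), and Klk1b27 read 3.91, 6.59 and 4.64 against 4.06, 1.05 and 2.13, where HFD-AOS 1 exceeded AOS 1. The same 3 genes were lower in HFD than in control, with log2 differences of -1.23, -1.31 and -1.15 and adjusted p of 0.583 or more, but over the 10 genes that pair gave 6 higher and a median of 0.056. They are not separate observations, since any pair of them is at least 93.3% identical. The longest run shared by Klk1b21 and Klk1b24 is 117 bases. It is shown with 15 coding bases on either side (GENCODE M21, GRCm38.p6, plus strand, spliced across 1 intron), at chr7:44105650-44105892 for Klk1b21 and chr7:44191523-44191764 for Klk1b24, with the 8 differing bases in capitals.
Klk1b21: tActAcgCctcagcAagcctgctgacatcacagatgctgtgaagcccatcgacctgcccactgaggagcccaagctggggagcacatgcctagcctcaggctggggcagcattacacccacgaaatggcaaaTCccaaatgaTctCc
Klk1b24: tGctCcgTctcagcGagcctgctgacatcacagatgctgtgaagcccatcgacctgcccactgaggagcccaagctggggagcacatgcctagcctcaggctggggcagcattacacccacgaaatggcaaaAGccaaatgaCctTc

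The symbols of adult beta-globin, also close in sequence, went in opposite directions. Hbb-bs has a place in the GENCODE annotation used here, while Hbb-b1 and Hbb-b2 have none. Whether they are separate genes in these mice was not tested. Hbb-bs read 0.30, 0.14 and 3.98 FPKM in AOS and 4.95, 4.79 and 13.1 in HFD-AOS, without overlap, with AOS 3 and HFD-AOS 3 highest in their groups. Hbb-b2 read 3.92, 5.63 and 2.54 FPKM in AOS and 1.19, 0.97 and 1.71 in HFD-AOS, and Hbb-b1 32.1, 48.0 and 22.8 against 18.96, 19.57 and 19.77. In both, each AOS value exceeded each HFD-AOS value. The summed level of the blood list was 292 to 359 FPKM in AOS and 271 to 311 in HFD-AOS.

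Set beside the diet difference without AOS, with which it shares no library, the picture was of few and small differences in both. HFD minus control gave 0 calls of 13105 by limma (0%), 884 genes at an unadjusted p under 0.05 (6.75%; 381 higher, 2.91%, and 503 lower, 3.84%) and a lowest adjusted p of 0.583. The difference between the diet differences with and without AOS was tested in the same model. It gave 0 calls (0%), 899 genes at an unadjusted p under 0.05 (6.86%) and a lowest adjusted p of 0.521. Without control 3, high in epididymal and accessory gland genes, limma gave 900 genes and a lowest adjusted p of 0.518 for that difference. Without control 3 and HFD-conFMT 2 together it gave 863 genes and 0.532. Round spermatid genes read higher on the diet in both, 24 of 38 with AOS and 32 of 38 without, where 48.8% and 45.2% of all genes did. Their medians were 0.053 and 0.060. Elongating spermatid genes (21 and 30 of 37) and cytosolic ribosomal protein genes (54 and 62 of 84) did so as well. Under quantile normalization 12 and 36 of these were higher with AOS. In HFD minus control, shorter transcripts tended to read higher (Spearman's rho with length -0.193), and the part of length in these counts was not tested. Inflammation genes did not share a direction, with 12 of 16 higher with AOS and 2 of 16 without, and 3 of the 16 had an unadjusted p under 0.05 for the difference.

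The 6 genes of smallest p for that difference, among those without overlap between HFD-AOS and AOS, had opposite signs in the 2 settings. A choice by the gap between the settings favours opposite signs, so the signs are not a separate result. Adi1, at 3.05 to 3.24 FPKM in AOS and 4.71 to 5.29 in HFD-AOS, read 5.58, 4.49 and 6.02 in control and 4.28, 4.44 and 3.50 in HFD. Its diet difference was 0.55 with AOS and -0.32 without, a gap of 0.88 ± 0.16 (SE; unadjusted p = 5.4e-05, adjusted p = 0.521). Arg2, the mitochondrial arginase, read 5.86, 6.03 and 7.47 FPKM in AOS and 3.90, 4.71 and 3.34 in HFD-AOS, but 4.93, 2.80 and 2.46 in control and 5.68, 7.02 and 6.27 in HFD. Among the groups of the 2 settings AOS and HFD were the high ones, and the gap was -1.36 ± 0.29 (SE). The remaining groups of the series, both on the diet and labelled AOS-FMT and control-FMT, were also high, with means of 6.19 and 6.30 FPKM. Plcg2, a phospholipase of immune receptor signalling, was at 4.63, 3.78 and 3.73 FPKM in AOS and 2.95, 2.98 and 2.93 in HFD-AOS, against 2.82, 3.29 and 2.78 in control and 3.41, 3.68 and 3.43 in HFD, without overlap in either pair. Mrps15, a mitochondrial ribosomal protein, was higher on the diet with AOS by 0.22 and read -0.14 without it. Asb17, a testis gene, and Btbd35f22 were lower on the diet with AOS by log2 differences of -0.12 and -0.53 and higher without it by 0.16 and 0.25. Each of these gaps had an adjusted p of 0.521 or more.

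**Figure D5:**
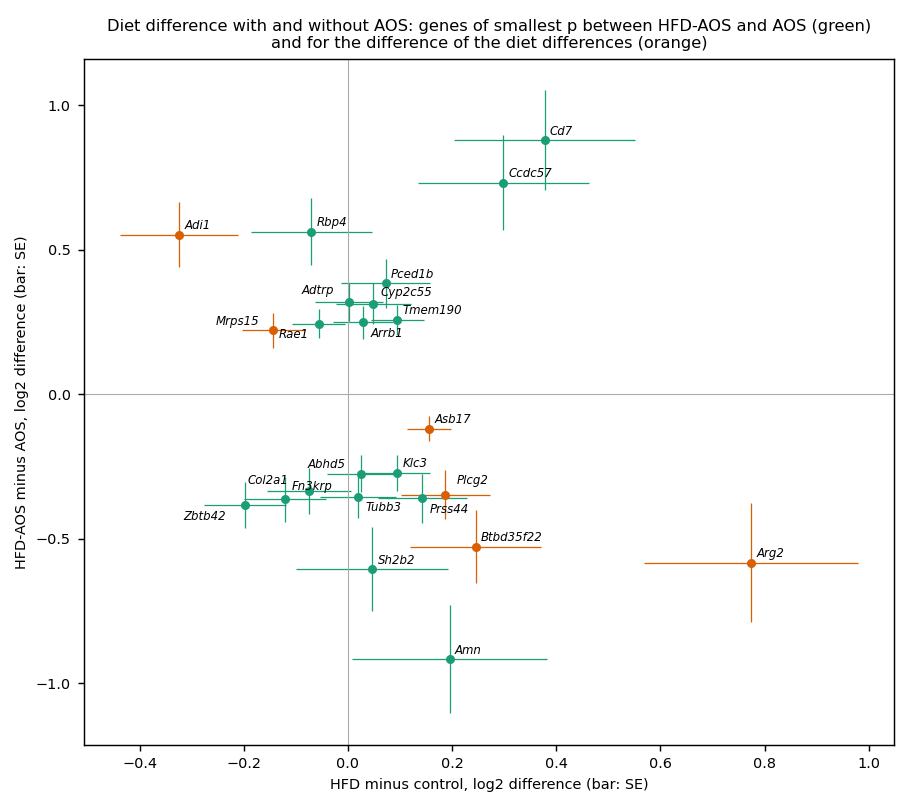
Log2 difference HFD-AOS minus AOS (vertical) against HFD minus control (horizontal) for the genes of smallest p, with SE bars and no shared library between the axes. Adi1 stands at 0.55 and -0.32 and Arg2 at -0.58 and 0.77, on opposite sides of 0.

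Differences spread over the genome without a marked place. The share of genes at an unadjusted p under 0.05 ran from 7.47% on chromosome X to 14.1% on chromosome Y, where 64 genes were tested and many are multi-copy. Across 12851 genes with a transcript length, Spearman's rho of the difference with length was -0.063, and with GC content 0.006; genes share libraries and are not replicates. For HFD minus control the rho with length was -0.193.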

How the data were processed

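RNA of frozen testis was sequenced. Reads were mapped with Bowtie 0.12.2 to mm10, per the submitters' processing notes; for the tool that counted them, its annotation and its strand setting the entry is: not given in the sources used here. In the table the authors deposited, 20985 rows hold values to 2 decimals without a named unit. These deposited values were taken to be FPKM: column sums vary and stay below the fixed totals of CPM and TPM, and low steps scale with transcript length. Of these, 6 rows of 3 repeated symbols were left out, and 22 date-like symbols name no gene. Of 20979 symbols, 20255 were matched to GENCODE M21 (GRCm38, the assembly of mm10).

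Values were taken as log2(FPKM + 1), and genes averaging 1 FPKM or more over 18 libraries were tested. One limma 3.58.1 model (R 4.3.3) of the 6 groups, fitted with a trend of variance on level (12 residual degrees of freedom) gave differences, SE and two-sided p-values, adjusted by Benjamini-Hochberg over all tested genes with a threshold of 0.05. It was tested on simulated data. Whether replicates are separate animals is not in the labels, so the p-values measure only the spread between these samples, which may be technical. Relative depth came from 78 genes whose lowest values mark 1 read, with 861 values, of which 92.1% lay within 0.15 of a whole step; each step was set from the gene's own lowest values. That no depth in reads is known leaves no counting interval.

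The members and the 36 gene lists were chosen with earlier results of these data known. With no gene called, the rule named the 10 genes of smallest p in each direction among those without overlap whose higher group averaged 2 FPKM or more, leaving out predicted and clone names. Added to these were, for each list, the 3 members of smallest p, the 6 genes of smallest p for the difference of diet differences under the same conditions, and a panel of testis genes. Further names, such as those called without HFD-AOS 3 and further list members of unadjusted p under 0.05, were picked once their values were known. Some genes are not reported here. Alternatives tried were a pseudocount of 0.1, no filter, a mean of at least 5 FPKM, quantile normalization, median scaling, removal of the length trend, array weights, a replicate block, only the groups compared, and leaving out libraries. Sequences came from RefSeq promoters and GENCODE transcripts, aligned with Biopython 1.88 in Python 3.11.15, and figures were drawn with matplotlib 3.10.9.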

Additional observations from a re-analysis of the deposited data

How the results depend on the processing

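No gene was called under any alternative that kept all HFD-AOS libraries. Leaving out 1 library at a time gave 0 to 26 genes called higher and 0 to 4 lower; the 26 and the 4 came without HFD-AOS 3, and without HFD-AOS 1 there was 1 gene called lower. For 142 named genes there were 144 results, since for Adi1 and Btbd35f22 the difference of diet differences was followed as well. Under 28 alternatives they gave 3990 values, as 42 results had none at a mean of at least 5 FPKM. Of the 3990, 3967 kept their direction and their side of the threshold, 6 passed it (all without HFD-AOS 3) and 17 changed sign. Under quantile normalization Meig1 turned to -0.030 and Ddx4 to -0.032, and with array weights Sycp3 turned to 0.055. When 1 library was left out, the lowest and highest log2 differences were -0.086 and 0.38 for Insl3, -0.093 and 0.098 for Sox9, -0.021 and 0.045 for Wt1, -0.030 and 0.029 for Ddx4, -0.10 and 0.054 for Sycp3, and -0.12 and 0.000897 for Tnp1.

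List medians moved as well, and the lists named here are not all that did. When 1 library was left out, medians ran from -0.131 to 0.105 for interferon response and -0.042 to 0.121 for macrophages and leukocytes. They ran from -0.076 to 0.014 for the proteasome and -0.056 to 0.034 for oxidative phosphorylation. For ribosomal proteins they ran from -0.003 to 0.062, and for Sertoli cells from -0.017 to 0.032. With array weights the spermatogonia median was -0.058 and the inflammation median 0.129. Quantile normalization gave -0.028 for elongating spermatids and -0.0013 for histones. A mean of at least 5 FPKM gave 0.174 for endothelium and 0.0091 for inflammation, no filter gave 0.079 for blood and 0.0091 for inflammation, and a pseudocount of 0.1 gave 0.162 for inflammation. When 1 library was left out, medians ran from -0.076 to -0.0044 for spermatogonia, 0.0167 to 0.125 for peritubular cells, -0.379 to -0.242 for the Klk1b kallikreins, -0.077 to -0.00019 for cholesterol biosynthesis, -0.022 to 0.018 for cholesterol uptake and efflux, 0.060 to 0.153 for inflammation, -0.051 to 0.020 for apoptosis, -0.061 to 0.012 for endoplasmic reticulum stress, -0.033 to 0.030 for the circadian clock, -0.037 to -0.0023 for the blood-testis barrier, -0.059 to -0.018 for retinoid metabolism, 0.0021 to 0.063 for histones and -0.019 to 0.035 for insulin and adipokine signalling. The cause was not tested.

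The replicate numbers did not pair the libraries: deviations of same-numbered HFD-AOS and AOS libraries correlated at -0.0123, 0.0554 and -0.0450, and all 9 pairings lay between -0.0599 and 0.0668. With a replicate block 0 genes were called in any direction, 695 against 677 genes were higher and 621 against 593 lower at an unadjusted p under 0.05. With 3 libraries a group and a median SE of 0.08, small differences in single genes were not detectable, and depth in reads is unknown.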

Other observations

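Other gene groups held single genes whose values stood apart without an adjusted p under 0.05. Among cholesterol uptake and efflux genes 10 of 15 read higher in HFD-AOS, including Apoe, a lipoprotein ligand, at 91.7, 88.7 and 72.1 FPKM in AOS and 119, 89.4 and 112 in HFD-AOS. The exporter Abca1 read 4.09, 5.31 and 3.49 FPKM in AOS and 4.85, 6.09 and 5.11 in HFD-AOS. Apoe and Abca1 both overlapped between the groups (log2 differences 0.34 and 0.27). Of 30 Sertoli cell genes 19 were higher with a median of 0.013, and 13 were higher with a median of -0.017 without HFD-AOS 2. The Sertoli markers Sox9 and Wt1 differed by 0.01 ± 0.13 and 0.01 ± 0.07 (log2, SE). Fshr, the follicle-stimulating hormone receptor of Sertoli cells, was at 0.95, 1.06 and 0.97 FPKM in AOS. In HFD-AOS it was at 1.84, 1.42 and 1.13, low in all but without overlap (log2 difference 0.30). Itga6, an integrin of basal germ cells, read 2.33, 2.0 and 2.34 FPKM in AOS and 1.79, 1.64 and 1.72 in HFD-AOS, without overlap (log2 difference -0.25, adjusted p = 0.426). In its list, the blood-testis barrier, 12 of 25 genes were higher and 13 lower, with a median of -0.005. Atf4, a transcription factor of the stress response, read 21.2, 21.1 and 22.0 FPKM in AOS and 23.2, 24.0 and 24.4 in HFD-AOS, also without overlap (log2 difference 0.15, adjusted p = 0.457). Its list, endoplasmic reticulum stress, had 12 of 25 genes higher and 13 lower, with a median of -0.019.

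Akt1 and Zbtb42, both lower in HFD-AOS without overlap, are neighbours on chromosome 12, at chr12:112653821-112674884 and chr12:112678828-112682747 in the GENCODE annotation. Zbtb42 read 17.9, 17.1 and 17.3 FPKM in AOS and 12.95, 12.5 and 14.0 in HFD-AOS. The log2 differences of Akt1 and Zbtb42 were -0.33 and -0.38, and without AOS the diet gave -0.02 and -0.20.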
